A study of Caenorhabditis japonica with 3 samples.

Results

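The transcripts described here are 268 genes of the nematode Caenorhabditis japonica that were abundant in embryos of 1, 2 and 4 cells and scarce from 60 minutes after the 4-cell stage onwards. They were taken from a table of 3955 genes, of which 3392 had exactly 1 mapped 3′ end peak and could enter. Members were chosen by their measured levels: the reads of a gene, pooled over the embryos of a window, came to at least 100 counts per 1000000 listed reads (CPM) in the embryos of 1, 2 and 4 cells and were at least 3-fold lower in each of 3 later windows. These later windows were 60 to 100 minutes (5 embryos), the middle library of 140 to 290 minutes (16 embryos) and the late library of 300 to 430 minutes (14 embryos). The 5 embryos of 10 to 50 minutes and the 3 embryos of 110 to 130 minutes played no part in the choice, and the tests below compare only these 8 embryos.

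The study followed single embryos with CEL-Seq, in which the polyA RNA of each embryo is barcoded, pooled, amplified linearly and counted at its 3′ end. Each of the 46 time points is 1 embryo, cut out of adult animals grown under standard C. elegans conditions, with no mutant, treatment or strain named in the labels. The first 16 embryos, from 1 cell to 130 minutes, form the early library. Within it barcode number ascends with age, so age and barcode order cannot be told apart, and the middle and late libraries cannot be told apart from their ages.

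In animals the egg is loaded during oogenesis with messenger RNA made by the mother, which runs the first cell divisions while the embryo's own genome is largely silent. Maternal messages are then removed in waves, some by factors already in the egg and others only after the embryo starts to transcribe. In C. elegans this turnover starts at the oocyte-to-embryo transition, with deadenylation and RNA-binding proteins among its known agents, and it goes on in the somatic cells as the germline precursors keep part of the maternal store. The members carry identifiers and no gene names in the sources used here, so none is described by its function. Since each embryo was processed whole, a loss of RNA in some of its cells and a lower level in all of them cannot be told apart.

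Depth set how closely each embryo could be read. Reads in the listed genes came to 48077 to 188509 in the embryos of 1, 2 and 4 cells and to 26508 to 257770 in those of 60 to 100 minutes. In the window of 10 to 50 minutes the embryos at 20, 30 and 50 minutes held 59988, 381377 and 404701 reads, and those at 10 and 40 minutes 14260 and 12038. The embryos at 110, 120 and 130 minutes held 1890, 14709 and 7443 reads. The highest Pearson correlation of log2(CPM + 1) between any pair of early embryos was 0.93, so no column of counts was a copy of another.

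As a group the members took a large part of the reads of the first embryos and a small part thereafter. Their share of the listed reads was 13.2% in the 1-cell embryo, 11.5% in the 2-cell embryo and 11.7% in the 4-cell embryo. It was 14.7%, 9.20%, 7.28%, 8.79% and 4.77% in the embryos at 10, 20, 30, 40 and 50 minutes. It was 2.44%, 1.73%, 1.91%, 1.41% and 1.37% from 60 to 100 minutes, in steps of 10 minutes. The share therefore stood near its starting value at 10 minutes and had dropped below every 1- to 4-cell embryo by 20 minutes, and the embryo at 50 minutes lay below all before it. In the embryos at 110, 120 and 130 minutes, which did not choose the members, the share was 2.65%, 1.40% and 1.36%. The first of these values has an exact 95% interval of 1.97% to 3.47%, which covers counting error only.

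The low share lasted to the end of the course. It ran from 0.876% to 1.22% in the middle embryos, with a median of 1.07%, and from 0.852% to 1.61% in the late embryos, with a median of 1.02%. The highest late value came from the embryo at 390 minutes, which has 2305 reads. CPM is a share of the listed reads, and no spike-in is named in the sources used here. A fall in CPM therefore cannot be told apart from a rise in the RNA of the other genes. For the windows that chose the members, the fall in the share is fixed by the choice.

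**Figure D1:**
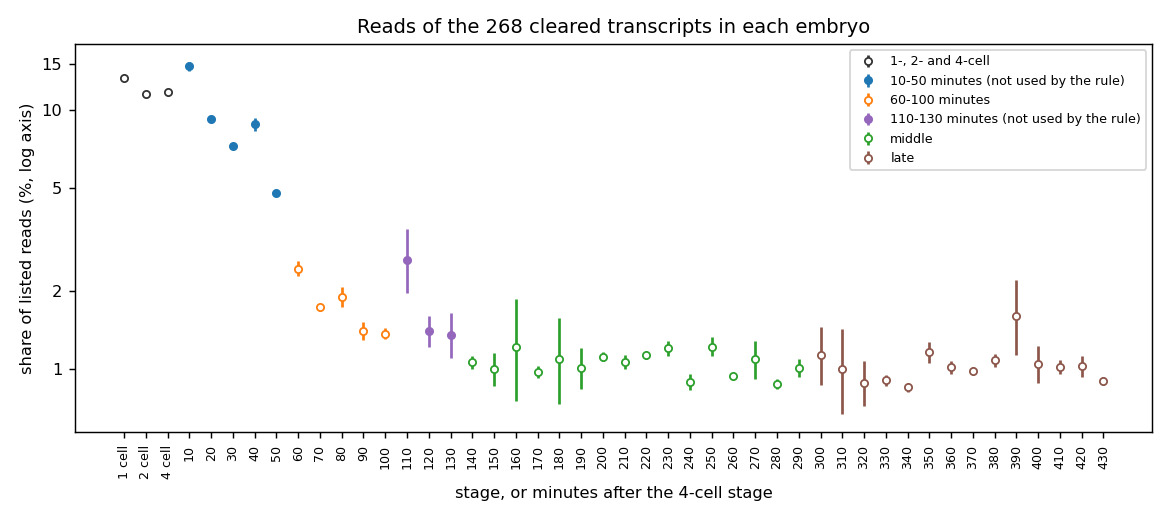
Share of the listed reads taken by the 268 members (%, log axis) in each of the 46 embryos, by stage or minutes after the 4-cell stage; bars are exact 95% intervals for counting error, open circles mark embryos whose reads chose the members and filled circles the 8 that did not. The share is 11.5% to 13.2% in the embryos of 1, 2 and 4 cells, 4.77% at 50 minutes, 1.36% at 130 minutes and 0.852% to 1.61% in the late library.

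The embryos of 1, 2 and 4 cells held the members at a pooled level of 102 to 6295 CPM, with a median of 285 CPM. Of the 268 members, 261 reached 100 CPM in the 1-cell embryo, 218 in the 2-cell embryo and 247 in the 4-cell embryo, and 198 did so in all 3. Their presence in the 1-cell embryo is what the label maternal rests on; reads alone do not separate RNA from the mother from RNA made in the embryo. The median ratio of the 4-cell to the 1-cell embryo was 0.843, with 5 members at least 3-fold lower and 2 at least 3-fold higher at 4 cells. The 2-cell embryo stood further apart: 33 members lay at least 3-fold below their pooled 1- to 4-cell level in it and 3 had 0 reads, against 6 and 0 in the 4-cell embryo. Most of the most abundant single-peak genes of these 3 embryos were not members. The members made up 2 of the top 10, 12 of the top 50 and 18 of the top 100. They are 268 of the 1765 single-peak genes with at least 100 CPM there, so their part of these ranks was not below that share. Their own top 10 held 22.4% of the members' reads.

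CJA14372 had the highest pooled level. It stood at 8000, 2596 and 5450 CPM in the embryos of 1, 2 and 4 cells, and at 3296, 5834, 1854, 5566 and 712 CPM from 10 to 50 minutes. It then lay at 354, 109, 151, 66.0 and 166 CPM from 60 to 100 minutes, and at 0, 272 and 0 CPM at 110, 120 and 130 minutes. The range from 10 to 40 minutes overlaps that of the first 3 embryos, and the value at 50 minutes is below all of these. In the middle library it had reads in 8 of 16 embryos, with a median of 1.10 CPM and a highest value of 22.5 CPM. In the late library it had reads in 5 of 14, with a median of 0 CPM and a highest value of 434 CPM, which is 1 read in the embryo of 2305 reads.

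CJA11400, the member with the second highest level, kept that level for longer. It stood at 3586, 8500 and 2538 CPM at 1, 2 and 4 cells, and at 13184, 3801, 2640, 4652 and 3118 CPM from 10 to 50 minutes. From 60 to 100 minutes it lay at 653, 842, 1056, 286 and 305 CPM, below every earlier embryo. In the middle library it ran from 0 to 56.2 CPM with a median of 10.9 CPM, and in the late library from 0 to 434 CPM, again 1 read in that embryo, with a median of 17.2 CPM.

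Members ranged widely in how far they fell, although the rule asked of each at least a 3-fold drop. The median member stood at 0.153 of its 1- to 4-cell level at 60 to 100 minutes, at 0.0988 in the middle library and at 0.0925 in the late library, from pooled reads. At least a 10-fold drop was met by 84 members at 60 to 100 minutes, by 134 in the middle library and by 145 in the late library, and by 52 in all 3 windows. These counts describe the members and were not tested. At the borders of the rule, CJA11774 and CJA15269 just entered with 102 CPM at 1 to 4 cells each, and CJA03213 and CJA15493 just missed with 99.2 CPM. CJA18942 just entered with 85.2 CPM at 60 to 100 minutes under a limit of 85.3 CPM, and CJA18744 with 58.5 CPM in the late library under a limit of 58.7 CPM. CJA17171 just missed with 39.49 CPM at 60 to 100 minutes over a limit of 39.47 CPM, and CJA08922 with 150.3 CPM in the middle library over a limit of 149.3 CPM.

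The 10- to 50-minute embryos were used to describe when the members fell, since the rule did not use them. Against the pooled 1- to 4-cell level, the median member stood at 0.696 at 20 minutes (quartiles 0.45 and 1.01), at 0.620 at 30 minutes (quartiles 0.402 and 0.881) and at 0.414 at 50 minutes (quartiles 0.229 and 0.635). At least a 3-fold drop was reached by 41 members in the embryo at 20 minutes, by 53 at 30 minutes and by 109 at 50 minutes. The shallow embryos at 10 and 40 minutes, with 14260 and 12038 reads, gave 72 and 75 members. In these 2 embryos 41 and 39 members had 0 reads. Over all 5 embryos the count therefore did not rise steadily. The same counts were not made for other genes, so they are not read as a trait of the members. In the other direction, 46 members stood at or above their 1- to 4-cell level at 30 minutes and 11 at 50 minutes. One side of each ratio comes from embryos the rule used, so high chance values there lower the ratio, and the ratios are a description.

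The 50- and 30-minute embryos, with 404701 and 381377 reads, are free of that limit when set against each other. Of the 268 members, 210 (78.4%) had a lower CPM at 50 than at 30 minutes. Of the other 1497 single-peak genes with at least 100 CPM at 1 to 4 cells, 759 (50.7%) did. This compares 1 embryo with 1 embryo and has no replicate check.

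**Figure D2:**
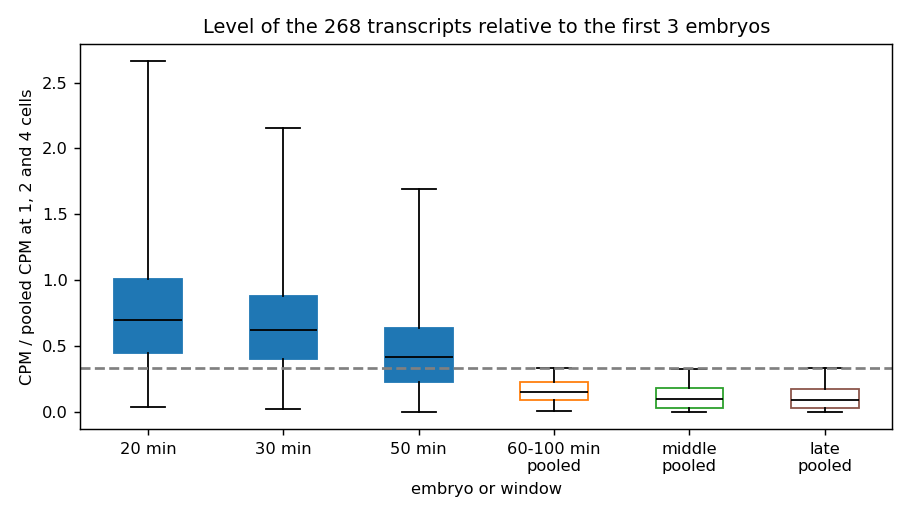
CPM of each of the 268 members divided by its pooled CPM in the embryos of 1, 2 and 4 cells (linear axis), for the single embryos at 20, 30 and 50 minutes (filled boxes, not used by the rule) and the pooled windows the rule used (open boxes); boxes span the quartiles, lines mark medians, whiskers the lowest and highest member, and the dashed line the 3-fold limit. The median is 0.696, 0.620 and 0.414 at 20, 30 and 50 minutes and 0.153 at 60 to 100 minutes, and the open boxes end at the dashed line because the rule set it.

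The members passed the 3-fold limit in different embryos. Whether they differ in the time of their fall was not tested. By the embryos at 20, 30 and 50 minutes, 19 members were at least 3-fold down at 20 minutes and stayed so at 30 and 50. Another 28 were down at 30 and 50 minutes but not at 20, 62 were down at 50 but not at 30 minutes, and 159 were not down at 50 minutes. Of the 41 members that were down at 20 minutes, 10 are among the 62, being above the limit at 30 minutes, and 12 are among the 159, so the order is set by 1 embryo per time and was not tested.

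The 19 earliest had a median of 771 CPM at 1 to 4 cells, and of 100, 60.3 and 39.5 CPM at 20, 30 and 50 minutes. The 28 next had 414 CPM at 1 to 4 cells, and 200, 102 and 64.2 CPM at 20, 30 and 50 minutes. The 62 next had 294 CPM at 1 to 4 cells, and 217, 176 and 64.2 CPM at these times. The 159 that were not down at 50 minutes had 266 CPM at 1 to 4 cells, 233, 191 and 158 CPM at these times, and 45.7 CPM at 60 to 100 minutes. In the shallow embryo at 10 minutes the 4 sets had medians of 421, 245, 386 and 140 CPM. In that at 40 minutes they had 83.1, 166, 166 and 249 CPM. The medians of the 19, the 28 and the 159 were thus higher at 40 than at 30 minutes. The members placed first in this order thus had the higher starting medians. The order is set against that same starting level, so this link is in part built in and was not tested. The 159 members held most of the group's reads at 50 minutes: 3.76% of the listed reads out of 4.77%. Of the 4 sets in that order, 15 of 19, 17 of 28, 22 of 62 and 30 of 159 stood at least 10-fold below their starting level at 60 to 100 minutes. These counts use the starting level again and a window of the rule, so they are a description.

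CJA02352 and CJA13785 had the lowest ratios of the pooled 10- to 50-minute level to the 1- to 4-cell level, at 0.0258 and 0.0363. CJA02352 stood at 1820, 1898 and 1123 CPM at 1, 2 and 4 cells, and at 1122, 66.7, 36.7, 83.1 and 9.88 CPM from 10 to 50 minutes. It lay between 0 and 54.4 CPM from 60 to 100 minutes, had 0 reads from 110 to 130 minutes and had reads in 3 of 16 middle and 2 of 14 late embryos. It was thus at its 4-cell level at 10 minutes and below it, at 9.88 to 83.1 CPM, in the other embryos up to 50 minutes. CJA13785 had 249, 92.3 and 312 CPM at 1, 2 and 4 cells and 140, 16.7, 7.87, 83.1 and 0 CPM from 10 to 50 minutes. It was seen again later, at a median of 67.9 CPM in the middle embryos and 55.7 CPM in the late ones.

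CJA33348 and CJA02320 had the highest such ratios, 1.68 and 1.57. CJA33348 stood at 488, 250 and 562 CPM at 1, 2 and 4 cells, at 140, 800, 894, 498 and 618 CPM from 10 to 50 minutes, and at 109, 97.0, 75.5, 110 and 69.8 CPM from 60 to 100 minutes. It was higher at 20, 30 and 50 minutes than in any of the first 3 embryos, and lower from 60 to 100 minutes than in any earlier embryo. CJA02320 had 159, 105 and 62.4 CPM at 1, 2 and 4 cells, 0, 233, 191, 249 and 222 CPM from 10 to 50 minutes, and 27.2, 27.2, 75.5, 0 and 78.5 CPM from 60 to 100 minutes. Its 1058 CPM at 110 minutes rests on an embryo of 1890 reads, and it had 68.0 and 0 CPM at 120 and 130 minutes. Over pooled reads, 22 members were at or above their 1- to 4-cell level at 10 to 50 minutes, 190 were below it by less than 3-fold and 56 by at least 3-fold.

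**Figure D3:**
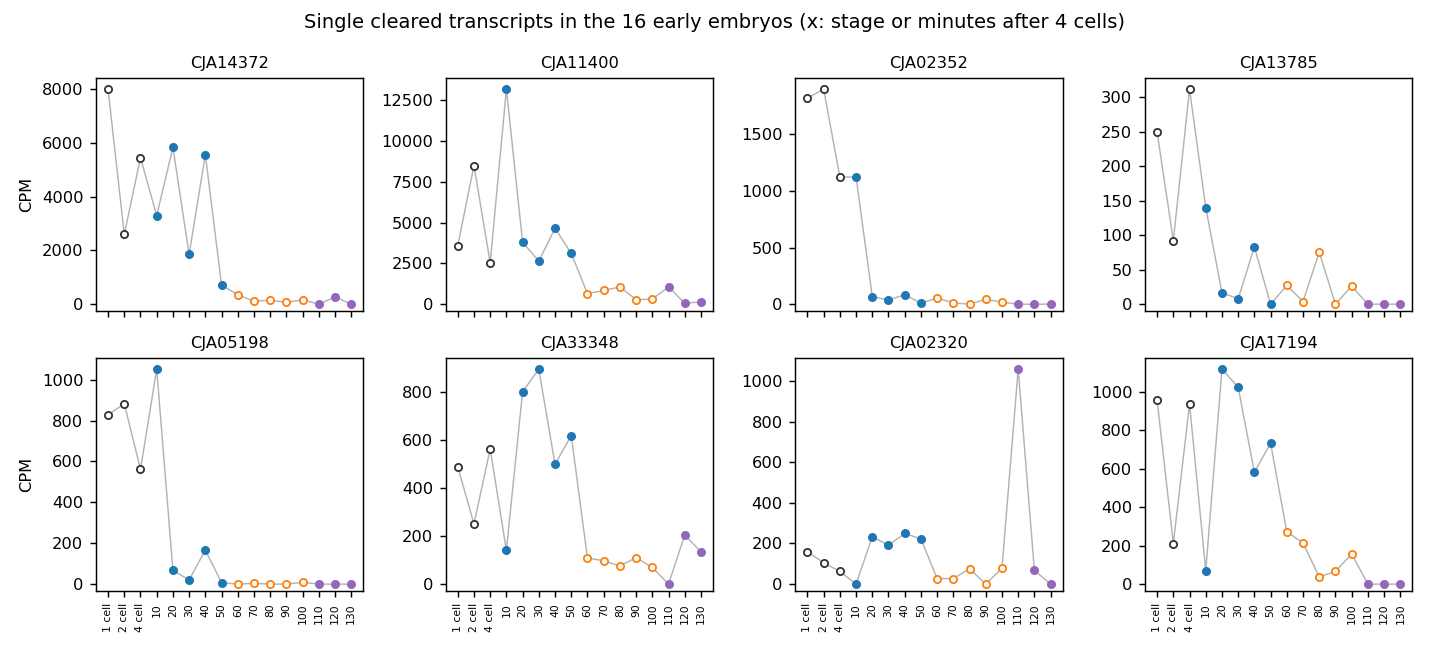
CPM (linear axis, one scale per panel) of 8 members in each of the 16 early embryos, by stage or minutes after the 4-cell stage; each point is 1 embryo, open circles mark embryos whose reads chose the members, and lines only join successive embryos. CJA02352 and CJA05198 lie at or below 83.1 and 166 CPM from 20 minutes on, CJA33348 and CJA17194 are higher at 20 and 30 minutes than at 1 cell, and the point of CJA02320 at 110 minutes rests on an embryo of 1890 reads.

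Whether members fell within the window of 10 to 50 minutes was tested by a slope on minutes over its 5 embryos, fitted across all genes with edgeR's quasi-likelihood test. The filter on low counts left 1681 genes and 171 of the 268 members. No gene passed at an adjusted p under 0.05, a background of 0.0% of genes. The smallest adjusted p of a member was 0.242. At an unadjusted p under 0.05, 97 of the 1681 genes were lower with time and 22 higher, and 56 members were lower and 0 higher. DESeq2 called 6 of the 1681 genes lower (0.357%), 5 of them members, and limma-trend called none.

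All 268 members could be tested without the filter. In that fit 16 members fell and 0 rose, against 0.623% of 3694 genes that fell. The slopes of the 16 ran from -1.65 to -0.80 on the log2 scale per 10 minutes. CJA05198 had the steepest, -1.65 ± 0.29 (SE; edgeR adjusted p = 1.30e-05): it stood at 1052, 66.7, 21.0, 166 and 7.41 CPM from 10 to 50 minutes. CJA02352, whose values are given above, followed with -1.60 ± 0.28 (SE; edgeR adjusted p = 8.70e-06). Both were chosen after their values were seen, and both fell mostly between the embryos at 10 and 20 minutes. The embryo at 10 minutes, with 14260 reads, decided these calls: without it the edgeR adjusted p was 0.54 for CJA05198 and 0.49 for CJA02352. Without that embryo 17 members fell, against 35 of 3693 genes, and only 3 of the 17 were among the 16.

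Most members had a negative slope in the unfiltered fit. Their median slope was -0.21 per 10 minutes on the log2 scale (quartiles -0.47 and -0.01), and 202 of 268 were below 0. The other 3426 genes had a median of 0.06 (quartiles -0.17 and 0.23), and 1460 of them were below 0. These are point estimates, and single embryos move them: without the embryo at 50 minutes the members' median slope was -0.10 and 113 of 268 were above 0, and without that at 10 minutes it was -0.25 with 51 above 0, against 66 with all 5 embryos.

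**Figure D4:**
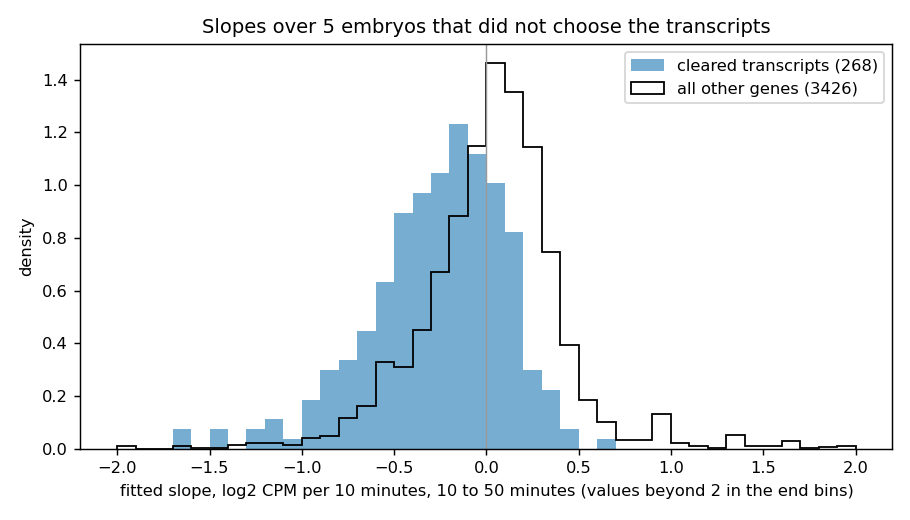
Fitted slopes over the 5 embryos of 10 to 50 minutes (log2 CPM per 10 minutes, edgeR without a filter on low counts) as densities for the 268 members (filled) and the other 3426 genes (line); values beyond 2 are counted in the end bins. The members' median is -0.21 and that of the other genes 0.06, and both distributions cross 0.

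The second test set the 3 embryos of 110 to 130 minutes against the 5 of 10 to 50 minutes, to ask whether members are lower in late early-library embryos that did not choose them. Only 18 of the 268 members passed the filter on low counts, since the later embryos are shallow. Of these, 9 were lower and 0 higher at 110 to 130 minutes (edgeR, adjusted p under 0.05), against 7.24% of 373 genes tested that were lower. Members could pass that filter through the embryos of 10 to 50 minutes alone: CJA17194 passed with 0 reads in the 3 later embryos. The 9 of 18 may therefore be selected for a high level in 1 of the windows and support nothing by themselves, and they say nothing of the other 250 members. Without the filter 48 of 268 members were lower and 0 higher, against 2.73% of 3730 genes that were lower. The log2 differences of all genes leaned the same way there: 72.2% were negative and their median was -0.88. For the members 264 of 268 were negative, with a median of -3.05. The 107 members with 0 reads at 110 to 130 minutes enter with values set by the fit, so this median is not a measured fold. From pooled reads the median level of the members was 153.6 CPM at 10 to 50 minutes. At 110 to 130 minutes it was 41.6 CPM, which is 1 read. Among the genes that were still less than 3-fold down at 60 to 100 minutes but lost by the middle and late libraries, 14 of 257 were lower in that fit of 8 embryos with no filter. A fit over all 16 early embryos tested 179 members and called 35 lower, against 4.81% of 1766 genes, but its filter and its spread draw on embryos that chose the members, so nothing is read from it.

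These counts depended on each of the 3 later embryos. Leaving out the embryo at 110, 120 or 130 minutes gave 4, 2 or 5 members lower with the filter. Over all genes it gave 17 of 455, 9 of 447 or 15 of 456 lower. Without the filter it gave 37, 12 or 10 members, of which 35, 11 or 9 were among the 48. Over all genes, 78 of 3726, 34 of 3720 or 22 of 3716 were lower without the filter. Of the 48 members, 25 had 0 reads at 110 to 130 minutes. With the window's floor of 3 reads, or 124.8 CPM, these were at least 1.27-fold to at least 6.99-fold lower than at 10 to 50 minutes. The 48 were the members with many reads: their median was 299 reads at 10 to 50 minutes, and that of the members not called was 113.

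CJA11400, the second most abundant member at the start, had 1058, 68.0 and 134 CPM at 110, 120 and 130 minutes, from 2, 1 and 1 reads. It averaged 420 ± 554 CPM there (SD, n = 3), against 5479 ± 4373 CPM at 10 to 50 minutes (SD, n = 5). The groups did not overlap, and the log2 difference was -5.01 ± 1.04 (SE; edgeR adjusted p = 0.00798), but without the embryo at 120 minutes the edgeR adjusted p was 0.065. That log2 difference comes from a fit scaled by TMM over the reads of the genes tested, so it is not the ratio of these CPM values. CJA17194 had 0 reads in all 3 embryos of 110 to 130 minutes, against 70.1, 1117, 1023, 581 and 731 CPM from 10 to 50 minutes. Its reads were at least 6.99-fold lower at 110 to 130 minutes (edgeR with the filter, adjusted p = 0.0246). It passed that filter through the embryos of 10 to 50 minutes alone, so nothing is read from this p-value. Without the embryo at 110, 120 or 130 minutes its edgeR adjusted p with the filter was 0.051, 0.11 or 0.053. CJA17194 was then seen again in the middle library, in 13 of 16 embryos with a median of 174 CPM, which lies below its 955 and 936 CPM at 1 and 4 cells and near its 211 CPM at 2 cells.

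For most members the depth at 110 to 130 minutes did not allow a statement about the 3-fold limit that the rule set for the neighbouring windows. A member with the median starting level would have 2.28 reads there at the limit, and 107 members had 0 reads. By their pooled values, 227 members were at or below the limit and 41 above it. With exact Poisson 95% intervals, 39 lay below it with their whole interval and 0 lay above it. Over pooled reads 252 of 268 members (94.0%) were lower at 110 to 130 than at 10 to 50 minutes. Of all 3187 single-peak genes with reads there, 1996 (62.6%) were lower, and a gene with 0 reads in the shallow window counts as lower in both figures.

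After 130 minutes the members covered a continuous range of low levels, with pooled medians of 24.9 CPM in the middle and 23.1 CPM in the late library. In the middle library 63 members lay under 10 CPM, in the late library 76, and in both 49. Pooled reads were 0 for 2 members in the middle library and for 1 in the late library. CJA05198 had 0 reads in the 16 middle embryos and reads in 3 of 14 late ones. At the other end, 20 members were above 100 CPM in the middle library and 18 in the late one. A late level above the middle level was found in 107 members, and a late level above that of 60 to 100 minutes in 68.

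CJA05861 and CJA13351 had the highest levels in the middle library. CJA05861 averaged 1470 ± 229 CPM at 1, 2 and 4 cells (SD, n = 3), ran from 0 to 1135 CPM with a median of 338 CPM in the middle embryos, and from 0 to 691 CPM with a median of 151 CPM in the late ones. CJA13351 averaged 2879 ± 1266 CPM at 1, 2 and 4 cells (SD, n = 3), ran from 0 to 894 CPM with a median of 157 CPM in the middle embryos and had a median of 39.99 CPM in the late ones. CJA09944 and CJA16666 had the highest levels in the late library. CJA09944 averaged 120 ± 43.5 CPM at 60 to 100 minutes (SD, n = 5) and had a median of 25.2 CPM in the middle embryos (0 to 166 CPM) and of 234 CPM in the late ones (0 to 868 CPM, the highest from 2 reads). CJA16666 changed less between these windows, with 162 ± 109 CPM at 60 to 100 minutes (SD, n = 5) and medians of 193 CPM in the middle embryos and 161 CPM in the late ones. The middle and late libraries hold embryos of as few as 1719 and 2305 reads, where 0 reads do not show that a transcript was absent.

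The table gives few features beside the levels, and these were set against all single-peak genes as medians, with no test. The peak held a median of 92.8% of a member's reads (quartiles 85.1% and 96.2%) and of 94.1% over all single-peak genes (quartiles 86.7% and 97.1%). The location number of the peak, whose origin the sources do not state, had a median of 2574 in members (quartiles 1101 and 5108) and of 2724.5 over all (quartiles 944 and 5236). Members had a median of 371.5 reads over the 46 embryos, and all single-peak genes 476 reads. The 8 embryos up to 50 minutes gave 68.7% of the members' reads and 22.8% of the reads of all 3955 listed genes, not of single-peak genes alone. This last pair is a level. The choice of members by high early and low later reads fixes it in part, so nothing is read from it.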

How the data were processed

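Per the file headers, the deposited table gives raw whole-number counts of reads for each 3′ end peak and a total row for each gene; no scaling by the authors is recorded. Bowtie2 2.1.0, HTSeq 0.5.4p3 and CASAVA 1.8 appear in the submitters' processing notes, without their settings. No source used here gives the genome build, annotation or peak caller. A deposited sheet ties all 46 columns to embryos. The labels mention additional embryos for 330 and 340 minutes, and which of them the columns hold is uncertain. Totals cover listed genes only, not full depth. No molecular identifiers are named, so intervals cover counting error only.

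CPM was computed as reads per 1000000 listed reads, pooled over a window's embryos or per embryo, without further scaling. Tests ran on gene totals in edgeR 4.0.16 under R 4.3.3 (glmQLFit and glmQLFTest, robust, two-sided) after filterByExpr and TMM, with Benjamini-Hochberg adjustment over all genes tested and a threshold of 0.05. DESeq2 1.42.0, limma-trend 3.58.1 with a prior count of 2, other scalings, no filter and leaving out embryos were alternatives. The SE beside an edgeR estimate is the size of the estimate divided by the square root of its F statistic. An embryo is a separate animal, so the spread behind each p-value is one between animals of different ages. The fits were tested on simulated data.

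The members, lists and tests were chosen with earlier results of these data known. Named by rule were, in each test, up to 2 members per direction with the largest change at an adjusted p under 0.05 and at least 20 CPM, the 2 with the highest starting level, the 2 lowest and 2 highest ratios of 10 to 50 minutes to 1 to 4 cells, the 2 nearest each side of each limit, and the 2 highest in the middle and in the late library. The gene lists prepared by symbol matched nothing, since no identifier is paired with a name.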

Additional observations from a re-analysis of the deposited data

Results flagged for a closer look

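The 12 named members and the members' share of reads were looked at in the windows of 10 to 50 and of 60 to 100 minutes. In 4 of these 26 groups of 5 embryos, 1 embryo stood far from the rest by Dixon's criterion. Chance alone meets it in about 1 of 20 groups of like embryos. That rate does not apply here, since the 5 embryos differ in age and several members were named by their 10- to 50-minute values. In all 4 groups the embryo that stood far off was that at 10 minutes, which has 14260 reads. CJA11400 had 13180 CPM in it and 2640 to 4652 CPM in the other 4 embryos of 10 to 50 minutes. CJA02352 had 1122 CPM in it and 9.88 to 83.1 CPM in the others. CJA05198 had 1052 CPM in it and 7.41 to 166 CPM in the others. CJA02320 had 0 CPM in it and 191 to 249 CPM in the others. Across all members, 92 of 268 stood at or above their 1- to 4-cell level in that embryo and 23 at or above 3 times it. The part of its depth or of its barcode in these values was not tested.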

How the results depend on the processing

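For 110 to 130 against 10 to 50 minutes, 9 members were lower with the filter and TMM, 9 with DESeq2 size factors in edgeR, 13 with DESeq2, 11 with limma-trend and 10 with library size alone. Of the 373 genes tested in each of these fits, 27, 26, 44, 28 and 28 were lower, in that order. The median log2 difference of all genes was -0.06 with TMM, -0.12 with library size, -0.17 with DESeq2 and -0.34 with limma-trend. With TMM and no filter that median was -0.88 over 3730 genes. No filter gave 48, the fit of all 16 early embryos 35 of 179 members, and a slope on minutes over the 8 embryos with no filter 71. Without 1 embryo the count ran from 2 to 11 with the filter and from 10 to 62 with no filter (30, 33, 36 and 58 without the embryos at 20, 30, 40 and 50 minutes, 37 without 110), and without the embryos at 10 and 40 minutes it was 51 with no filter. For the slope within 10 to 50 minutes, the count of 0 became 5 with DESeq2 and 16 with no filter. Without 1 embryo it ran from 0 to 17 with the filter and from 5 to 17 with no filter (15 without the embryo at 40 minutes), and without the embryos at 10 and 40 minutes it was 26 with no filter. With the filter, leaving out 1 embryo moved the genes tested from 373 to between 338 and 456 for the windows. For the slope it moved them from 1681 to between 1074 and 2995. What part these numbers and the reads left had in the counts was not tested. Over all genes and without 1 embryo, 9 to 35 were lower at 110 to 130 minutes with the filter and 22 to 164 with no filter. For the slope 0 to 24 genes fell with the filter and 5 to 35 with no filter. The slope over the 8 embryos with no filter called 117 genes lower. Without the embryos at 10 and 40 minutes and with no filter, 129 genes were lower and 52 had a falling slope. No member was called higher in any of these fits. The rule gave 421 members with a fall of 2-fold, 141 with a fall of 5-fold and 211 with TMM-scaled CPM; without 1 of the first 3 embryos it gave 235 to 279. Leaving out embryos with no filter, and the slope over the 8 embryos with no filter, were added after seeing the data. No paired analysis was possible because each time point is 1 embryo and the windows share no replicate numbers. The fit of all 16 draws on embryos that chose the members. Depth limits the embryos at 110 to 130 minutes most, where 107 members had 0 reads.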
